A study of Rattus norvegicus with 8 samples.

Results

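The potassium, sodium and chloride channels and the sodium pump of rat soleus were examined. Their members are all probe sets whose single platform gene symbol begins with Kcn, Scn, Clcn, Atp1a or Atp1b. The rule used no measured value and found 116 probe sets of 76 genes among the 8740 probe sets of the array. Of these members, 45 probe sets of 35 genes lay at or above the 40th percentile of mean signal (25.8) and were tested, and 71 probe sets lay under it.

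Soleus, a calf muscle rich in slow fibres, was taken from female rats in 3 groups, and each array carried RNA pooled from 8 to 10 animals. The control group (3 pools) lived in cages with spontaneous activity for 12 h. In the unloaded group (3 pools) standing on the hindlimbs was prevented for 12 h. In the walked group (2 pools) hindlimb unloading of 12 h was followed at once by 4 h in which 30 min walks on a treadmill took turns with 30 min of cage activity, so that walking came to 2 h. Walked against control therefore compares unloading plus walking, and a later time of sampling, with cage life, and these cannot be told apart. Walked against unloaded likewise differs by walking, by cage activity on loaded hindlimbs and by a later time of sampling, which cannot be told apart. The sources used here give neither strain nor age. P-values rest on the spread between pools, which average over animals.

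The signals are MAS5 intensities on a linear scale, and a log2 fold change compares group means of log2 signal. Calls, and the words rose and fell, are kept for a limma adjusted p under 0.05 (Benjamini-Hochberg over 5244 probe sets). The deposited medians of the arrays lay between 37.1 and 42.4, and arrays correlated with each other at 0.913 to 0.963. The slow fibre markers Myh7 (5146 to 8004 on its brighter probe set) and Tnni1 (3126 to 5446) were bright on every array. By the brightest probe set of each gene, 4 of 7 slow fibre markers were called higher in walked against control (median 0.58). In unloaded against control 1 was called lower, while the median of the list was 0.28. Their summed signal was 20806 to 23476 in control, 23835 to 33242 in unloaded and 30699 to 34161 in walked pools. Of 8 fast fibre markers, 2 were called lower in walked against unloaded. Control pool 3 stood apart for some members: its signal was more than 2-fold below both other control pools for 4 of the 45 tested members (8.89%), against 191 of all 5244 tested probe sets (3.64%). Those 4 probe sets belong to Kcnmb1, Atp1b2, Scn4a and Kcnd2, and their values are given with and without that pool where a comparison is described.

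The sodium pump moves sodium out of and potassium into the fibre, and it is made of a catalytic alpha and a beta subunit. The action potential of skeletal muscle is carried by the sodium channel of Scn4a, and the chloride channel of Clcn1 holds the resting fibre stable. Potassium channels repolarise the membrane; the ATP-sensitive type, whose pore comes from Kcnj11 in fibres and from Kcnj8 mainly in blood vessels, couples the membrane to the energy state of the cell.

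The sequence just before the start of 2 members is shown because Kcnj8 was the tested member called in a comparison and Kcnn3 was the member under the signal limit with the clearest separation of the arrays. Each is the 150 bases before the annotated start in RefSeq on rat assembly GRCr8, written 5′ to 3′ on the strand of the gene. Kcnj8 lies at chr4:177246549-177246698 on the minus strand and Kcnn3 at chr2:177234190-177234339 on the plus strand. Capitals mark a GC box, here read on the reverse strand.
Kcnj8: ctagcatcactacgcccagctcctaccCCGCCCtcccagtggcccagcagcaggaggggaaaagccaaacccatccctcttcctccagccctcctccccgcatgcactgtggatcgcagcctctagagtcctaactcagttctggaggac
Kcnn3: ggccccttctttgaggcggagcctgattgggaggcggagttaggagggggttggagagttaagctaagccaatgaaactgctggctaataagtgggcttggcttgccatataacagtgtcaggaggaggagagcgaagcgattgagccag

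The Kcnj8 window held 62% G and C and the Kcnn3 window 54.7%, against a median of 52.7% over 33469 windows of this length. Of 4 motifs searched on both strands, the GC box (GGGCGG) was found once for Kcnj8, 123 bases before the start, and it occurs in 26.0% of all windows. The E-box (CANNTG, in 46.6% of windows), the TATA box (TATAAA, 8.00%) and the letters of the cyclic AMP response half-site (TGACG, 13.4%) had no match in either window. A match or its absence describes only these letters. The table held windows for 59 of the 76 genes.

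Few channel and pump transcripts passed the test. Unloading for 12 h left 0 of the 45 tested members called against control, while 7.3% of all tested probe sets were called. Walking after unloading left 0 of 45 called against unloaded, with 4.2% of all tested probe sets called. Walked against control gave 1 of 45 called (2.22%), the vascular channel gene Kcnj8, which fell, against 9.08% of all tested probe sets called in either direction and 4.61% called lower.

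At an unadjusted p under 0.05 in the same limma fit, 6 of 45 members passed in unloaded against control (13.3%, with 21.5% of all probe sets). These were Scn3a, higher, and Kcnj11, Kcnj8, Atp1b3, Kcnh2 and Kcnh4, lower. In walked against unloaded 4 passed (8.89%, with 17.4% of all), namely Kcnj11, higher, and Kcnj8, Atp1b2 and Clcn3, lower. In walked against control Kcnj8, Atp1b2 and Kcnma1 passed, all lower (6.67%, with 24.7% of all).

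The members' median log2 fold change was -0.07 after unloading (against control), 0.09 after walking (against unloaded) and -0.05 for walked against control. Over all tested probe sets the medians were -0.08, -0.05 and -0.11. With quantile normalization the members' first and last medians were 0.02 and 0.01, so their sign depended on the scaling. A change smaller than 0.5 either way was measured for 32, 37 and 35 of the 45 members in the 3 comparisons. The arrays of the groups compared did not overlap for 10 members in unloaded against control (22.2%, with 26.4% of all tested probe sets). The same held for 10 members in walked against unloaded (22.2%, with 35.3% of all) and for 13 in walked against control (28.9%, with 43% of all).

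**Figure D1:**
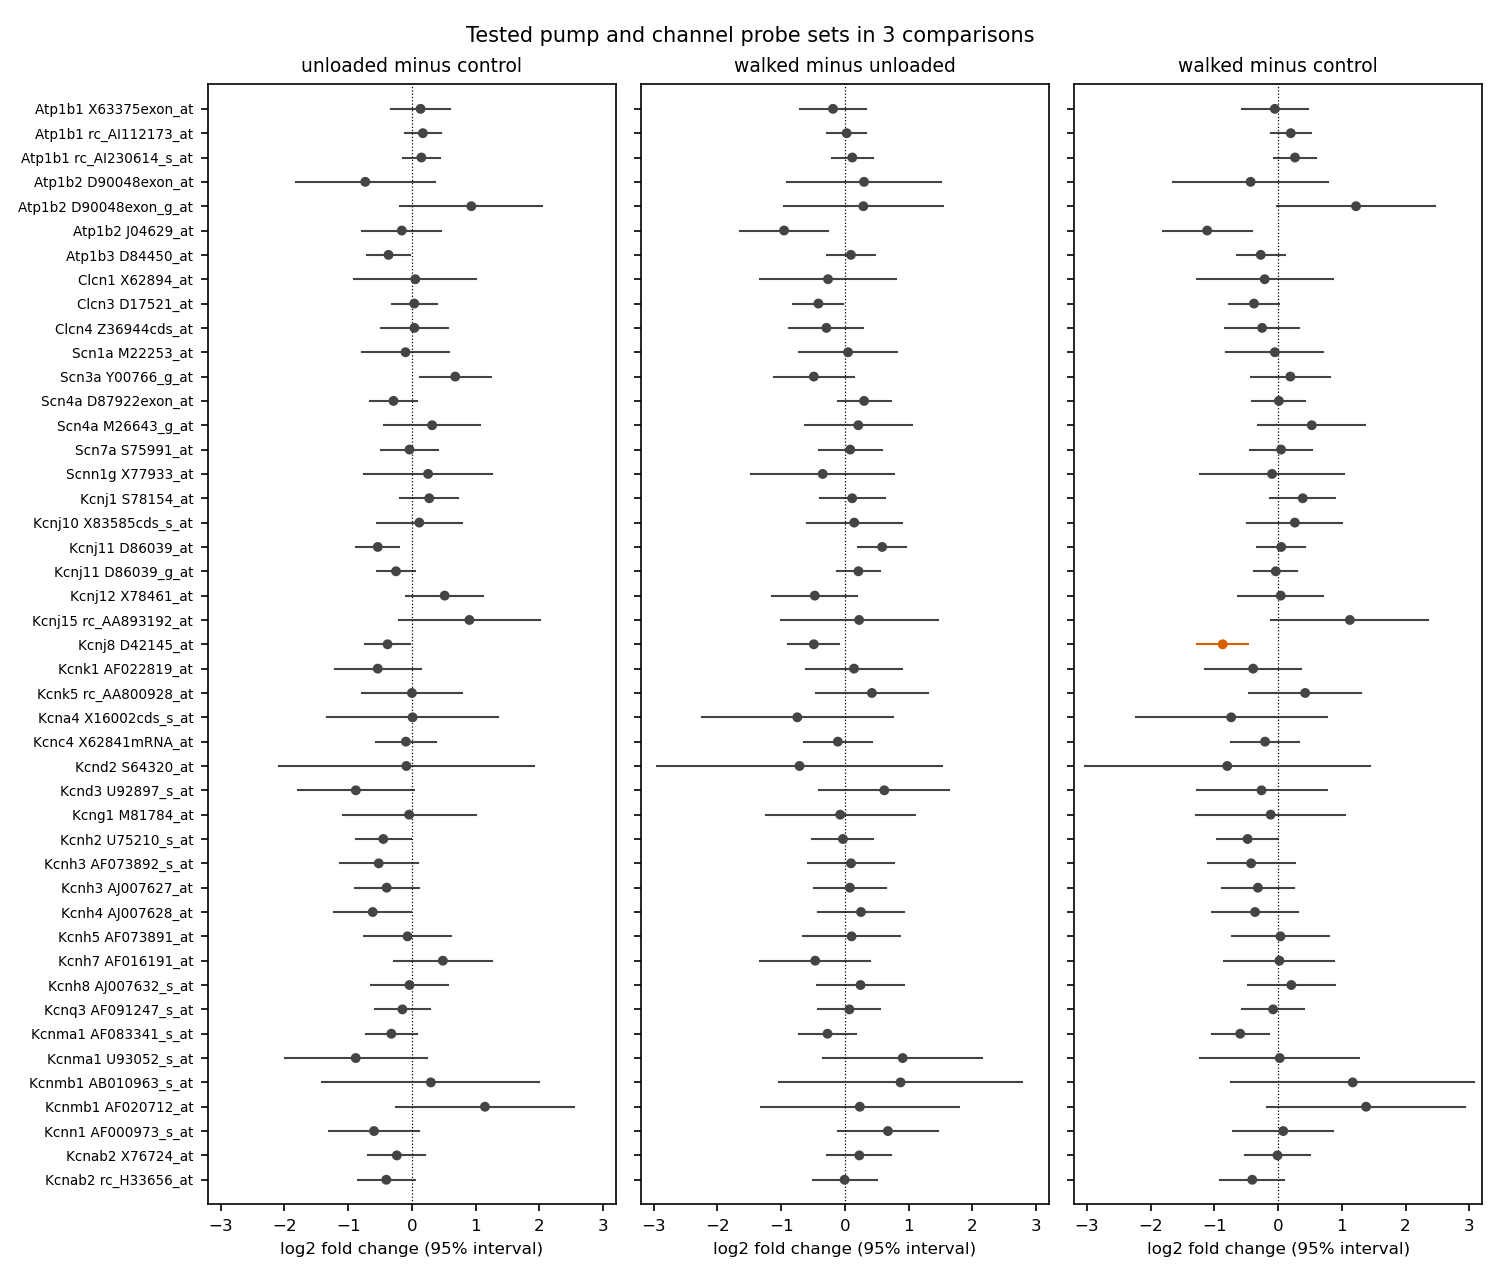
Log2 fold change of each of the 45 tested probe sets (rows) in the 3 comparisons (panels, horizontal axis in log2 units), with the 95% interval of the limma fit as a line; orange marks the probe set called at an adjusted p under 0.05. Kcnj8 in walked minus control is the single orange point, and most points lie within 0.5 of 0.

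Which families were measurable differed. Of the sodium pump 7 of 8 probe sets were tested, of the EAG and ERG potassium channels 7 of 11, and of the calcium- or sodium-activated potassium channels 5 of 9. By contrast 5 of 17 voltage-gated sodium channel probe sets, 7 of 22 inward rectifier probe sets and 5 of 27 Shaker-related probe sets were tested. Chloride channels had 3 of 6, two-pore potassium channels 2 of 4, auxiliary potassium channel subunits 2 of 6, KCNQ channels 1 of 3 and epithelial sodium channels 1 of 3.

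The limit cut through a continuous range. Just under it lay Kcne1 (mean signal 25.03), a Kcnj1 probe set (25.3) and a Scn4a probe set (25.7), and just above it Kcnj15 (25.97), a Kcnmb1 probe set (26.9) and Kcng1 (27.2). The single-array signals of the 71 untested probe sets ran from 0.600 to 55.2. Of the 76 genes, 41 had no tested probe set.

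**Figure D2:**
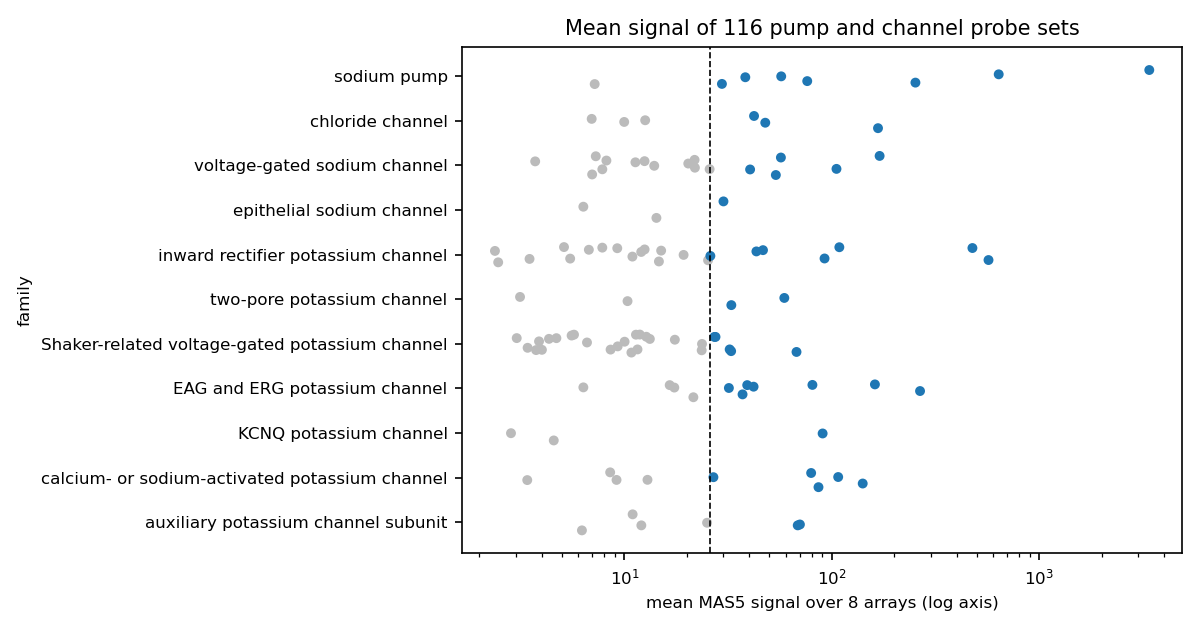
Mean MAS5 signal over 8 arrays of each of the 116 member probe sets (points, log axis) by family; the dashed line is the signal limit of 25.8, with tested probe sets in blue and untested ones in grey. An Atp1b1 probe set of the sodium pump is the rightmost point, and 22 of the 27 Shaker-related probe sets lie under the limit.

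The beta subunits of the sodium pump gave signals in all groups, and none of their 7 tested probe sets was called in any comparison. Atp1b1, the widely expressed beta subunit, had its brightest probe set (rc_AI112173_at) at 3323, 3357 and 2719 on the control arrays, 3653, 3448 and 3452 on the unloaded arrays and 3241 and 3957 on the walked arrays. The unloaded arrays were all above the control arrays, and the walked arrays overlapped both. The log2 fold change of unloaded against control was 0.17 ± 0.13 (SE, 95% interval -0.10 to 0.45, limma adjusted p = 0.485), and that of walked against control 0.20 (-0.11 to 0.51).

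A second Atp1b1 probe set (rc_AI230614_s_at) read 608, 605 and 538 in control, 668, 625 and 648 in unloaded and 620.3 and 791 in walked pools. On it both the unloaded and the walked arrays lay above all control arrays, with log2 fold changes of 0.15 (-0.14 to 0.44) and 0.27 (-0.06 to 0.59). The third and dimmest (X63375exon_at) ranged from 58.6 to 94.6 with overlapping groups. None of the 3 probe sets of Atp1b1 was called in any comparison.

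Atp1b3, another beta subunit, read 268, 266 and 337 in control, 222, 201 and 251 in unloaded and 241 and 237 in walked pools. Every unloaded and walked array lay below every control array. Its log2 fold changes were -0.37 ± 0.15 (95% interval -0.70 to -0.03, adjusted p = 0.191) for unloaded against control, 0.09 (-0.28 to 0.47) for walked against unloaded and -0.27 (-0.65 to 0.10) for walked against control.

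Atp1b2, the beta subunit known from brain and from skeletal muscle, was measured by 3 tested probe sets that disagreed. On the brightest of them (J04629_at) control pools read 64.0, 80.4 and 60.8, unloaded pools 64.2, 49.5 and 71.0 and walked pools 22.5 and 43.8. The walked arrays were the lowest, below every array of both other groups. The log2 fold change of walked against control was -1.11 ± 0.32 (95% interval -1.81 to -0.42), with a limma adjusted p of 0.0513 that missed the limit; it was -1.59 (adjusted p = 0.0420) without walked pool 2 and -0.63 (adjusted p = 0.317) without walked pool 1.

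Against unloaded, the same Atp1b2 probe set gave -0.96 ± 0.32 (-1.65 to -0.26, adjusted p = 0.136), with -1.43 (adjusted p = 0.0646) without walked pool 2 and -0.48 (adjusted p = 0.606) without walked pool 1. The other Atp1b2 probe sets overlapped between all groups. One (D90048exon_g_at) gave 1.22 (-0.02 to 2.47) in walked against control and the other (D90048exon_at) -0.43 (-1.65 to 0.78), or -0.93 without control pool 3, and their control arrays spread 3-fold (43, 15.4 and 14.3, and 45.7, 53.8 and 17.5). In unloaded against control the latter gave -0.73, or -1.23 without control pool 3 (adjusted p = 0.162). No direction for Atp1b2 held across its probe sets. The catalytic subunit gene Atp1a4, known from testis, lay between 2.90 and 19.4 and was not tested.

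Chloride channels showed no called change. Clcn1, the main chloride channel of the fibre membrane, read 41.9, 57.7 and 27.4 in control, 55.3, 22.4 and 59.99 in unloaded and 46.2 and 26.4 in walked pools. The arrays of each group lay far apart from one another, and the groups overlapped throughout. The intervals were wide: 0.06 (-0.90 to 1.01) for unloaded against control, -0.27 (-1.33 to 0.80) for walked against unloaded and -0.21 (-1.28 to 0.86) for walked against control. Each interval spans both directions, so no change in Clcn1 was detectable at this precision.

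Clcn3, a chloride and proton exchanger of internal membranes, read 159, 167 and 201 in control, 167, 183 and 189 in unloaded and 120.4 and 149.9 in walked pools. Both walked arrays lay below all others. The log2 fold change was -0.42 ± 0.18 (-0.81 to -0.02, adjusted p = 0.257) against unloaded and -0.38 (-0.77 to 0.02, adjusted p = 0.221) against control. Clcn4, a related exchanger, ranged from 34.5 to 53.2. Clcn5 (3.30 to 24.5) and Clcn7 (3.89 to 18.3) lay under the limit.

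Scn4a, the sodium channel of adult skeletal muscle, was represented by 3 probe sets, of which 2 were tested. The brighter (D87922exon_at) read 199, 195 and 152 in control, 128, 161 and 159 in unloaded and 196 and 170.4 in walked pools. The walked arrays were above all unloaded arrays, and the control arrays overlapped both groups. Its log2 fold changes were -0.29 ± 0.17 (95% interval -0.66 to 0.08) for unloaded against control, 0.30 (-0.12 to 0.72) for walked against unloaded and 0.01 (-0.40 to 0.43) for walked against control, with adjusted p-values of 0.372, 0.463 and 0.977.

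The other tested Scn4a probe set (M26643_g_at) read 119, 119.7 and 42.3 in control, 116, 108 and 93.6 in unloaded and 111 and 133 in walked pools. Control pool 3 was the lowest array by far. With that pool the log2 fold change of unloaded against control was 0.32 and that of walked against control 0.53; without it they were -0.18 and 0.03. Neither tested probe set was called in any comparison. The third Scn4a probe set (M26643_at), just under the limit, read 33.5, 24.0 and 23.2 in control and 37.7, 26.2 and 19.5 in unloaded pools. Its walked arrays (19.8 and 22.1) lay below all controls. Limma without the limit gave 0.02 for unloaded and -0.34 (-1.20 to 0.52, adjusted p = 0.689) for walked against control.

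Scn3a, a sodium channel of the nervous system, read 51.9, 40.2 and 35.5 in control, 86.0, 65.4 and 54.3 in unloaded and 44.3 and 52.0 in walked pools. All unloaded arrays lay above all others. The log2 fold change was 0.68 ± 0.25 (0.12 to 1.24, adjusted p = 0.141) for unloaded against control and -0.49 (-1.11 to 0.14, adjusted p = 0.420) for walked against unloaded. A second Scn3a probe set lay under the limit, between 3.69 and 20.9.

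The remaining tested sodium channel genes overlapped between groups. Scn1a, a neuronal channel, ranged from 27.4 to 54.4, and Scn7a, the sodium-sensing relative, from 49.1 to 63.4. Scnn1g, a subunit of the epithelial sodium channel, ranged from 14 to 44. Scn2a, Scn2b, Scn8a, Scn9a, Scn10a, Scn11a, Scnn1a and Scnn1b had no tested probe set, and their highest signal on any array was 32.6, for Scn9a.

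The pore genes of the ATP-sensitive potassium channel include Kcnj8, the member called in the fit with the signal limit. Kcnj8 (D42145_at) read 128, 127 and 153 in control, 100.1, 112 and 101 in unloaded and 69.1 and 79.7 in walked pools. The 3 groups did not overlap: every unloaded array lay below every control array, and every walked array below every unloaded array. The means were 136 ± 14.8 (SD, n = 3), 104 ± 6.68 (n = 3) and 74.4 ± 7.55 (n = 2).

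Kcnj8 fell in walked against control by 0.87 on the log2 scale (SE 0.18, 95% interval -1.27 to -0.47, limma adjusted p = 0.0172). Its steps were -0.38 ± 0.16 (-0.74 to -0.02, adjusted p = 0.205) for unloaded against control and -0.49 ± 0.18 (-0.89 to -0.09, adjusted p = 0.186) for walked against unloaded. The call was lost without walked pool 1 (-0.77, adjusted p = 0.112) and without walked pool 2 (-0.97, adjusted p = 0.0727), where the lone walked array is assumed to vary like the other groups. In whole muscle, fewer cells of a type and less RNA per cell cannot be told apart.

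Markers of the vessel wall were read beside Kcnj8. Of 6 smooth muscle markers, 5 were on the array and tested, and 0 were called in walked against control, with a median of -0.24. Their summed signal was 4008 to 4783 in control, 3712 to 4923 in unloaded and 4587 to 5706 in walked pools, most of it from Des, which skeletal fibres also express. Tagln, a smooth muscle actin-binding protein, fell in unloaded against control by 1.13 on one probe set (adjusted p = 0.00988) and by 0.96 on the other (adjusted p = 0.0223; 0.0649 without control pool 3 and 0.0820 without unloaded pool 2), and gave -0.26 and -0.24 in walked against control.

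Of 8 endothelial markers, 5 were on the array and 4 were tested, with 0 called in each comparison and a median of -0.11 in walked against control. Summed over all 5, the signal was 401 to 476 in control, 354 to 413 in unloaded and 376 to 433 in walked pools. Pecam1, an endothelial adhesion molecule, gave -0.27, -0.04 and -0.31 in the order of comparisons above. No marker of either list was at the lowest 4.10 of signal on all arrays. The part of these cells in the Kcnj8 result was not tested.

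Kcnj11, the pore gene of the fibre's own ATP-sensitive channel, was bright on both of its probe sets and was not called. The first (D86039_at) read 754, 524 and 646 in control, 467, 404 and 445 in unloaded and 712 and 605 in walked pools. The unloaded arrays were the lowest, below every array of both other groups, and walked and control arrays overlapped. The log2 fold changes were -0.53 ± 0.15 (95% interval -0.88 to -0.19, adjusted p = 0.0631) for unloaded against control, 0.58 ± 0.17 (0.20 to 0.96, adjusted p = 0.0978) for walked against unloaded and 0.05 (-0.33 to 0.43) for walked against control.

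Without control pool 2, whose Kcnj11 signal was the lowest of the controls, the unloaded against control value was -0.67 (adjusted p = 0.0305). Leaving out each other pool in turn gave adjusted p-values above the limit, up to 0.186. The second Kcnj11 probe set (D86039_g_at) read 547, 455 and 528 in control, 488, 383 and 419 in unloaded and 489.7 and 501 in walked pools. Its changes had the same signs in the first 2 comparisons and were smaller: -0.25 (-0.55 to 0.06), 0.21 (-0.13 to 0.55) and -0.04 (-0.38 to 0.30).

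The regulatory partners of these pores are sulfonylurea receptors, and in the gene table Kcnj8 lies next to Abcc9 and Kcnj11 next to Abcc8. Abcc9, the receptor of muscle and vessel, was not called on any of 3 probe sets. Its brightest (D83598_at) read 270.2, 291 and 232 in control, 279.7, 298 and 269 in unloaded and 260.0 and 263 in walked pools, with changes between -0.11 and 0.10. Another (AF019628_at) ranged from 117 to 161 with changes between -0.02 and 0.04.

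The third Abcc9 probe set (AF087838_s_at) read 166, 146 and 176 in control, 113, 110.4 and 80.5 in unloaded and 148 and 75.7 in walked pools. Its unloaded arrays all lay below the control arrays (-0.70 ± 0.24, adjusted p = 0.118), so the probe sets of this gene did not give 1 answer. Abcc8, the receptor known from pancreatic beta cells, read 38.2, 45.7 and 43.1 in control, 5.50, 28.5 and 27.8 in unloaded and 34.9 and 35.7 in walked pools. Unloaded arrays were lowest here too, with a change of -1.37 ± 0.57 (adjusted p = 0.195) that was not called.

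**Figure D3:**
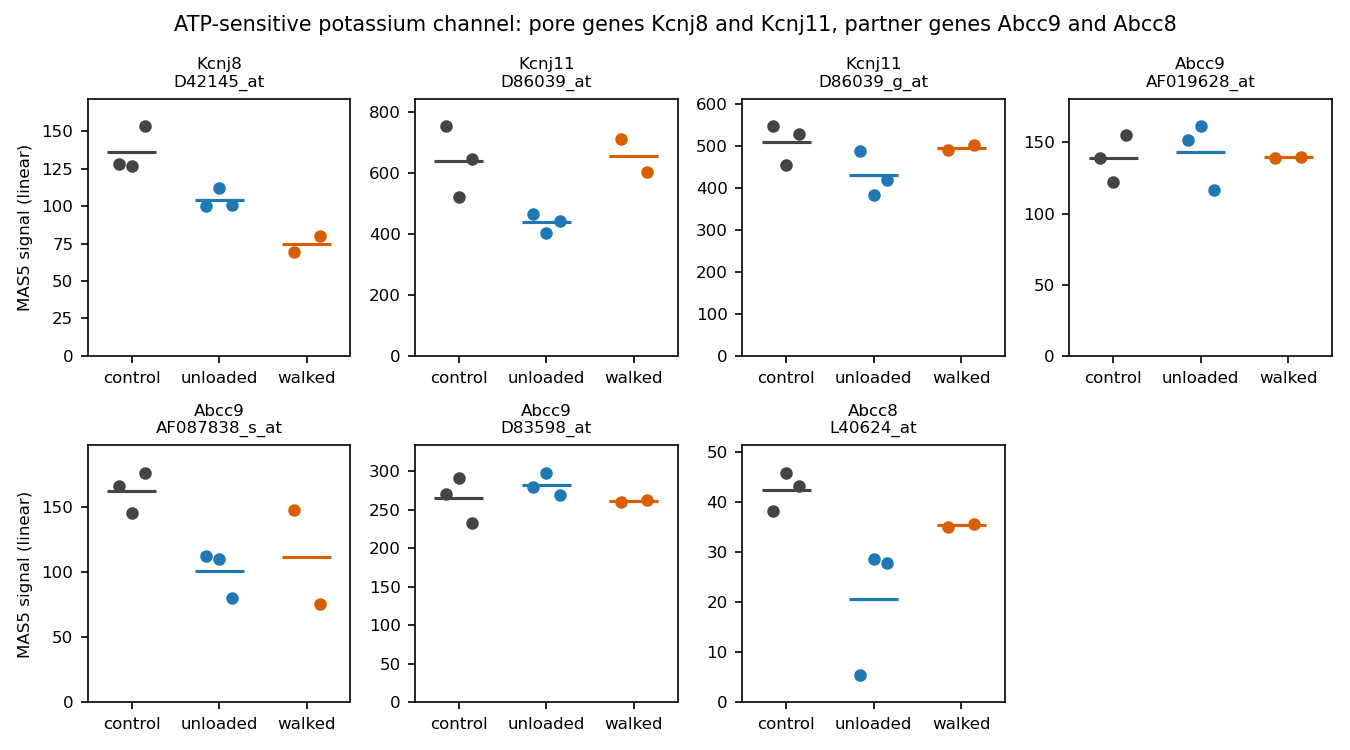
MAS5 signal (vertical axes, linear, from 0) on each control, unloaded and walked array (points; bars are group means) for the probe sets of Kcnj8, Kcnj11, Abcc9 and Abcc8. Kcnj8 steps down from 136 through 104 to 74.4, while the first Kcnj11 probe set is low in the unloaded arrays alone, at 404 to 467.

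The other inward rectifiers were dimmer. Kcnj12, a strong inward rectifier of muscle, read 47.0, 35.6 and 29.5 in control, 63.4, 45.4 and 49.99 in unloaded and 38.2 and 37.3 in walked pools. Its walked arrays lay below all unloaded arrays, and the changes were 0.52 (-0.08 to 1.11), -0.47 (-1.14 to 0.20) and 0.04 (-0.63 to 0.71). Kcnj2, the other classical strong rectifier of muscle, gave 1.00 to 6.30 on its 1 probe set and was not tested.

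Kcnj1, a channel best known from kidney, ranged from 65.8 to 128, and Kcnj10, known from glia, from 33.3 to 69.2. Kcnj15 ranged from 11.9 to 49.7; both of its walked arrays lay above all control arrays (1.13, -0.11 to 2.36, adjusted p = 0.244). The groups of Kcnj10 overlapped. Kcnj3, Kcnj4, Kcnj5, Kcnj6, Kcnj9, Kcnj13, Kcnj14 and Kcnj16 had no tested probe set, and Kcnj13 was at or below 4.10 on every array. Of the two-pore background channels, Kcnk1 ranged from 33.4 to 81.8 and Kcnk5 from 19.3 to 46.2, and Kcnk3 was not tested (2.20 to 13.8).

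Of the Shaker-related voltage-gated channels, 5 of 17 genes were measurable. Kcnc4, a fast-deactivating channel subunit of skeletal muscle, read 73.3, 72.0 and 67.9 in control, 66.9, 83.2 and 53.0 in unloaded and 69.5 and 54.7 in walked pools. The groups overlapped, and the intervals ran from -0.57 to 0.38, from -0.64 to 0.42 and from -0.74 to 0.33 in the 3 comparisons. Kcnd3, which carries transient outward current, read 53.7, 45.9 and 25.4 in control, 23.8, 21.3 and 19.9 in unloaded and 49.2 and 22.3 in walked pools. Its unloaded arrays were below all controls and the change was -0.88 (-1.79 to 0.03, adjusted p = 0.253). On a Kcnd3 probe set under the limit (M74898cds_s_at) all unloaded and walked arrays lay below all controls. Without the limit it gave -1.37 (adjusted p = 0.202) for unloaded and -0.92 (adjusted p = 0.390) for walked against control. Another (rc_AI230211_s_at) lay between 2.70 and 4.60.

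Kcna4 (8.11 to 40.5), Kcnd2 (5.31 to 55.8) and Kcng1 (14 to 35.5) spread widely within each group, and Kcnd2 gave -0.09 in unloaded against control, or -0.83 without control pool 3 (adjusted p = 0.701). The fixed muscle genes Kcna1 (1.5 to 39.3), Kcna5 (12.3 to 43.0) and Kcnc1 (2.90 to 24.5) lay under the limit, as did Kcna2, Kcna3, Kcna6, Kcnb2, Kcnc2, Kcnf1, Kcns1, Kcns3 and Kcnv1. Of the KCNQ channels, Kcnq3 ranged from 72.1 to 109.6 with overlapping groups and Kcnq1 was untested (2.00 to 4.90).

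Of the 7 tested probe sets of EAG and ERG channels, 0 were called in any comparison. After unloading 6 of the 7 log2 fold changes were below 0 (5 with quantile normalization), with a median of -0.39, against -0.08 over all tested probe sets. Probe sets of the family under the limit mostly went the other way in a fit without the limit. Those of Kcnh2 (0.53), Kcnh6 (0.33) and Kcnh8 (0.66) were above 0, and that of Kcnh1 (-0.70) was below it. Kcnh2, the ERG channel known for repolarising heart muscle and described in atrophying skeletal muscle, read 216, 178 and 186 in control, 145, 181 and 107 in unloaded and 136 and 141 in walked pools. The walked arrays lay below all controls, and 1 unloaded array overlapped the controls. Its change was -0.45 ± 0.19 (-0.88 to -0.02, adjusted p = 0.213) for unloaded and -0.48 ± 0.22 (-0.96 to 0.00, adjusted p = 0.203) for walked against control. Leaving out unloaded pool 2 moved the first value to -0.63, and leaving out unloaded pool 3 moved it to -0.25.

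The second Kcnh2 probe set (Z96106_at), under the limit, went the other way. It read 19.4, 18.5 and 17.4 in control, 21.4, 27.0 and 32.5 in unloaded and 17.2 and 18.6 in walked pools. Its unloaded arrays lay above all others, and the fit without the limit gave 0.53 for unloaded against control (-0.05 to 1.11, adjusted p = 0.368). No direction for Kcnh2 held across its probe sets.

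Kcnh4 read 50.9, 48.5 and 53.9 in control, 25.6, 34.6 and 42.0 in unloaded and 35.0 and 45.1 in walked pools. All control arrays lay above all others, and the change of unloaded against control was -0.61 ± 0.28 (adjusted p = 0.227). Kcnh3, like Kcnh4 a channel known from forebrain, gave -0.52 and -0.39 on its probe sets, which ranged from 41.6 to 102 and from 189.9 to 361. Kcnh5 (31.6 to 53.9), Kcnh7 (22.9 to 53.2) and Kcnh8 (29.4 to 43.3) overlapped between unloaded and control arrays, and Kcnh1 and Kcnh6 were untested.

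Several of these channels are best known from neurons, so nerve markers were read beside them. Of 9 neuronal markers, 7 were on the array and 2, Syp and Gap43, were tested, with 0 called. Summed over all 7, tested or not, the signal was 153 to 167 in control, 118 to 132 in unloaded and 104 to 115 in walked pools. These 3 ranges did not overlap. Of all tested probe sets, each taken singly, 26.4%, 35.3% and 43% did not overlap in the 3 comparisons. Those shares do not apply to a sum of genes that mostly lay under the limit, for which no share was computed. Of 8 Schwann cell markers, 6 were on the array and 5 were tested. Summed over all 6, the signal was 738 to 810, 682 to 738 and 682 to 691. Of the 5 tested, 0 were called in unloaded against control and 1 was called lower in each of the other comparisons. The shares called over all tested probe sets were 7.3%, 4.2% and 9.08%. No marker of either list was at 4.10 or below on all arrays, and the part of nerve in the channel values was not tested.

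None of the tested probe sets of calcium-activated channels was called. Kcnma1, the pore of the large-conductance channel, had a probe set (AF083341_s_at) at 125, 145 and 113 in control, 87.0, 115 and 105 in unloaded and 92.5 and 76.4 in walked pools. The walked arrays lay below all controls, with a change of -0.59 ± 0.20 (-1.04 to -0.15, adjusted p = 0.0911). A second Kcnma1 probe set (U93052_s_at) spread from 42.9 to 143 within the control group alone and gave 0.03 (-1.22 to 1.28) in the same comparison. Its remaining probe sets lay under the limit and did not give 1 direction. On U55995_at the walked arrays (21.2 and 24.6) lay above all controls (4.80, 17.6 and 8.40). In the fit without the limit it gave 1.36 (adjusted p = 0.472) in walked against control. On U40603_at that comparison overlapped (-0.75, adjusted p = 0.642). Its unloaded arrays lay below all controls (-1.55, adjusted p = 0.301).

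Kcnmb1, the smooth muscle beta subunit of that channel, read 169, 110.3 and 17.7 in control, 123, 203 and 144 in unloaded and 177 and 183 in walked pools on its brighter probe set (AF020712_at). Control pool 3 was far below all other arrays. The change was 1.15 (-0.24 to 2.54) for unloaded and 1.38 (-0.17 to 2.94) for walked against control, the highest among the members, and 0.17 and 0.40 without control pool 3. A dimmer Kcnmb1 probe set (AB010963_s_at) ranged from 8.99 to 61.5 with overlapping groups. Kcnn1, a small-conductance channel, read 83.6, 83.5 and 95.1 in control, 31.3, 84.2 and 73.5 in unloaded and 92.0 and 92.7 in walked pools, with changes of -0.59 (-1.29 to 0.11), 0.67 (-0.11 to 1.46) and 0.08.

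The auxiliary subunit Kcnab2, a partner of Shaker-type channels, ranged from 51.2 to 84.0 on one probe set and from 53.3 to 98.1 on the other. On the latter the unloaded and walked arrays all lay below the controls (log2 fold changes of -0.40 and -0.41 against control, adjusted p = 0.297 and 0.305; -0.25 and -0.26 without control pool 3). On the former the groups overlapped. Kcnab1, Kcnab3 and Kcne1 had no tested probe set.

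Among the members under the signal limit, Kcnn3 separated the groups, and the Kcnd3 probe set M74898cds_s_at separated control from the other arrays. They were not alone. Walked arrays of Kcnh6, Kcnj3 (U09243_at) and Kcnj4 (X83580cds_s_at) lay below all other arrays. Those of Scn2a lay below all controls and those of Kcne1 (D10709exon_s_at) above them. Without the limit, limma gave Scn2a -2.21 (adjusted p = 0.101) and Kcne1 1.31 (adjusted p = 0.182) in walked against control. How often probe sets under the limit separate was not counted. Kcnn3 encodes a small-conductance calcium-activated channel known from denervated and immature muscle fibres. It read 19.99, 16.1 and 18.6 in control, 4.00, 2.40 and 1.5 in unloaded and 5.10 and 5.61 in walked pools. Every control array lay well above every other array, but all unloaded values lay under 4.10, the level below which signals were set to a common floor in the fit.

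Without the signal limit, limma over all 8740 probe sets gave Kcnn3 a log2 fold change of -2.15 ± 0.12 for unloaded against control (adjusted p = 0.000866) and -1.76 for walked against control (adjusted p = 0.00371). The floor left no spread among the unloaded values in that fit. With neither limit nor floor the values were -2.90 ± 0.46 (adjusted p = 0.0104) and -1.76 (adjusted p = 0.103). In the fit without the limit 2.61% and 2.47% of all probe sets were called in these comparisons.

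Kcna2, a delayed rectifier, was the other member under the limit that was called in the fit without it, on 1 of its 2 probe sets (J04731_at). That probe set read 1.80, 1.20 and 4.10 in control, 0.600, 1.90 and 5.60 in unloaded and 9.11 and 10.3 in walked pools. The walked arrays were highest, but all control arrays and 2 unloaded arrays were at or under the floor. Its values were 1.09 (adjusted p = 0.0212) against unloaded, where 1.91% of probe sets were called, and 1.24 (adjusted p = 0.0200) against control; without the floor the adjusted p-values were 0.246 and 0.154. The brighter Kcna2 probe set (X16003cds_s_at) read 4.50, 11.8 and 15.3 in control, 3.2, 3.70 and 5.10 in unloaded and 5.60 and 3.61 in walked pools. Its walked arrays overlapped the controls, and walked against control gave -0.96 (-2.17 to 0.25, adjusted p = 0.377) in the same fit, opposite in sign.

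**Figure D4:**
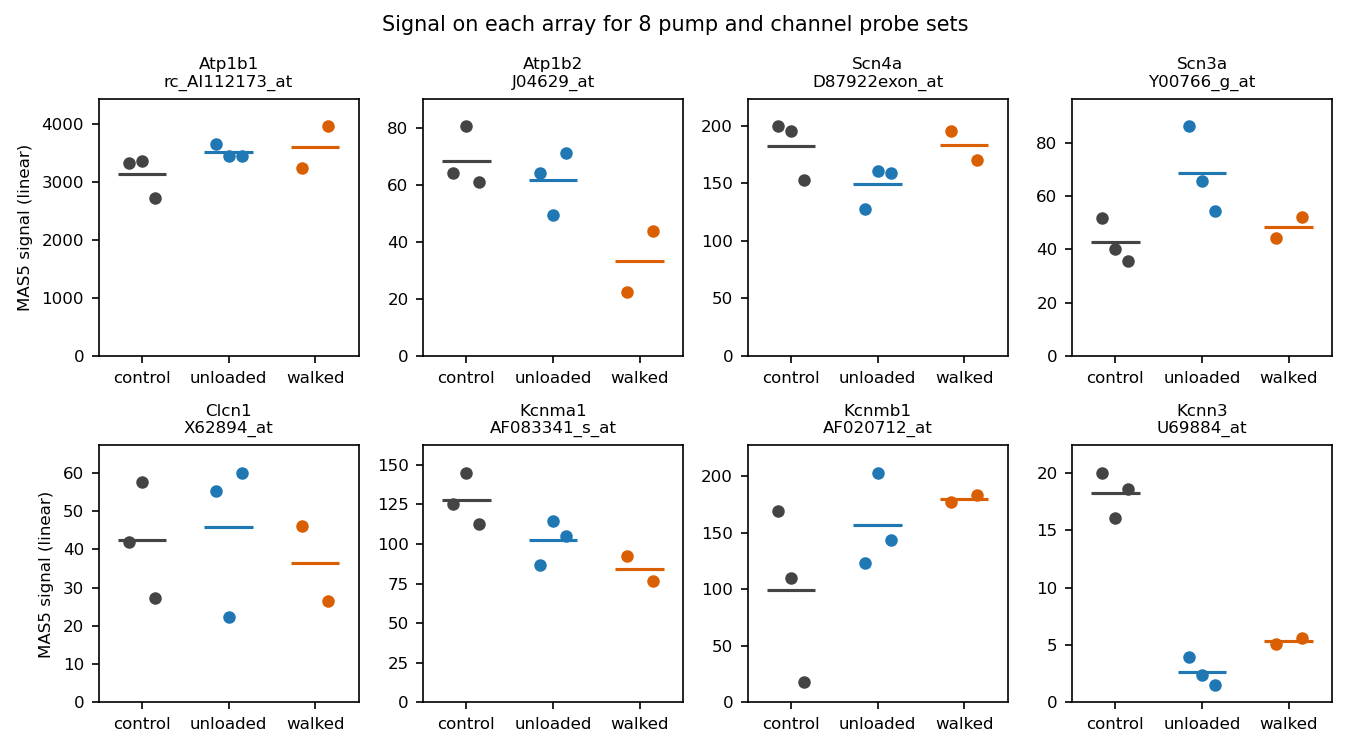
MAS5 signal (vertical axes, linear, from 0) on each control, unloaded and walked array (points; bars are group means) for 8 probe sets of pump and channel genes. Kcnn3 is high in the control arrays alone, at 16.1 to 19.99, the Atp1b2 probe set shown (J04629_at, not followed by the other Atp1b2 probe sets) is lowest in the walked arrays, and the lone low control point of Kcnmb1 is pool 3 at 17.7.

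Other ion transport genes gave the setting for these values. Of 67 such genes that are not members, 45 were on the array and 33 had a tested probe set. By the brightest probe set of each gene, 0 were called in unloaded against control and 1 rose in walked against unloaded. In walked against control 1 rose and 2 fell. The medians were 0.00, 0.00 (-0.0047) and 0.01. Of all tested probe sets, 7.3%, 4.2% and 9.08% were called in these comparisons. The called genes are described below as single genes, not as a result about ion transport. Fxyd1, the muscle regulator of the sodium pump, ranged from 3159 to 3711 on its brighter probe set, with changes no larger than 0.01 and intervals within -0.27 to 0.28.

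Sgk1, a hormone-regulated kinase that acts on sodium and potassium channels, rose with walking. It read 66.7, 69.1 and 76.1 in control, 44.6, 56.4 and 73.4 in unloaded and 133 and 139 in walked pools. Both walked arrays lay far above all others, with changes of 1.25 ± 0.23 (adjusted p = 0.00968) against unloaded and 0.94 ± 0.23 (adjusted p = 0.0326) against control. With each of the 8 pools left out in turn the first value stayed between 1.08 and 1.44 and the call was lost without walked pool 1 (adjusted p = 0.0775) or walked pool 2 (adjusted p = 0.0995). The second lay between 0.90 and 1.00, and its call was lost in 5 of the 8, those without a control or a walked pool (adjusted p up to 0.177).

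Slc12a7, a potassium-chloride cotransporter, fell in walked against control by 1.71 (SE 0.44, adjusted p = 0.0372), from 114, 128 and 122 in control to 18.6 and 74.2 in walked pools, with 62.4, 76.0 and 56.9 in unloaded pools. Walked pool 1 was much the lower, and without it the value was -0.71 (adjusted p = 0.171); the call was also lost without any one control pool, unloaded pool 1 or unloaded pool 2. Slc4a3, a chloride-bicarbonate exchanger, fell in the same comparison by 0.71 (SE 0.19, adjusted p = 0.0409), from 582, 607 and 776 to 449 and 349.8, with 549, 436 and 406 in unloaded pools. Its call was lost in 6 of 8 cases with 1 pool left out, with adjusted p-values up to 0.284 (-0.53, without walked pool 2); it stayed without unloaded pool 1 or unloaded pool 3. For both genes every unloaded and walked array lay below every control array.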

How the data were processed

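Soleus RNA of 8 pools was read on one-colour Affymetrix arrays. Per the submitters' processing notes the authors made the deposited intensity values with MAS5, whose version and target of scaling the sources used here do not give. It subtracts a mismatch or background estimate, so low intensities are noisy. Arrays were scaled to one 2% trimmed mean (148.6; 148.3 to 148.8 as deposited), floored at the 10th percentile (4.10), taken to log2 and limited to probe sets at or above the 40th percentile of mean signal. limma 3.58.1 (R 4.3.3) was fitted to 3 groups on 8 arrays with eBayes and a mean-variance trend, two-sided, with 5 residual and 6.00 prior degrees of freedom, after tests on simulated data. The number of arrays limits the precision.

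Of 8740 probe sets, 7006 carried 1 symbol in the platform annotation, 308 carried several and 1426 are unnamed here. All 116 members matched the GRCr8 gene table. Probe sets whose names carry a letter such as s or g can match several transcripts.

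Named were called members, fixed muscle genes, members with an unadjusted p under 0.05 and, by range, the other members; of the other ion transport genes up to 4 called per comparison. Members and lists were chosen with earlier results of these data known. Scaling, floor, limit, trend, samples, block and left-out pools were varied.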

Additional observations from a re-analysis of the deposited data

How the results depend on the processing

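The count of called members in unloaded against control was 0; it became 1 with no filter (Kcnn3), 1 with no filter and no floor, an alternative chosen after seeing the data (Kcnn3), and 1 with the replicate block (Kcnj11, -0.53, adjusted p = 0.0374). It ranged from 0 to 1 as single pools were left out. In walked against unloaded the count was 0, 1 with no filter (Kcna2) and 0 to 0 with pools left out. In walked against control the count was 1, 3 with no filter (Kcnj8, Kcna2 and Kcnn3), 0 with the replicate block (Kcnj8 -0.84, adjusted p = 0.0527) and 0 to 1 with pools left out; without walked pool 2 the 1 called was Atp1b2, not Kcnj8. Quantile normalization, no rescaling, the higher floor, no floor, the filter at the 60th percentile, no trend and fitting only the 2 groups compared left the 3 counts at 0, 0 and 1. Over all probe sets, the calls went from 383, 220 and 476 to 228, 167 and 216 with no filter and to 243, 150 and 211 without the trend. The cause of these shifts was not tested. Pools share numbers across groups, but same-numbered pools did not deviate together (correlations from -0.07 to 0.05), so the numbers do not pair the samples. With the block Slc4a3 in walked against control gave -0.69 (adjusted p = 0.0785), no longer called, while Sgk1 and Slc12a7 stayed called.

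Of 1113 alternative values for 63 named log2 fold changes, 38 in 21 results turned sign, and none of these results exceeded 0.43 in size. In walked against unloaded, the signs turned for Atp1b1 rc_AI112173_at (-0.025 with quantile normalization, -0.030 with the block) and, with the block, for Atp1b2 D90048exon_at (-0.0026) and D90048exon_g_at (-0.057) and Scn4a M26643_g_at (-0.082). In walked against control they turned for Atp1b1 X63375exon_at (0.015 with quantile normalization, 0.048 with the block) and, with the block, for Scn4a D87922exon_at (-0.024) and Kcnj12 (-0.053). With pools left out, unloaded against control ranged from -0.23 to 0.51 for Clcn1, -0.031 to 0.14 for Clcn3, -0.18 to 0.57 for Scn4a M26643_g_at and -0.25 to 0.072 for Kcnc4. Walked against unloaded ranged from -0.12 to 0.17, -0.060 to 0.29 and -0.46 to 0.085 for the 3 Atp1b1 probe sets, -0.14 to 0.74 and -0.12 to 0.63 for Atp1b2, -0.72 to 0.14 for Clcn1, -0.28 to 0.061 for Kcnc4 and -0.23 to 0.15 for Kcnh2. Walked against control ranged from -0.32 to 0.22 for Atp1b1 X63375exon_at, -0.93 to 0.013 for Atp1b2 D90048exon_at, -0.61 to 0.19 for Clcn1, -0.11 to 0.11 for Scn4a D87922exon_at, -0.089 to 0.17 and -0.12 to 0.016 for Kcnj11, -0.11 to 0.22 for Kcnj12 and -0.54 to 0.33 for Kcnma1 U93052_s_at.

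The precision is limited by 2 or 3 arrays per group and by low signal over background, as 71 of 116 members lay under the limit.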
